A study of Mus musculus with 7 samples.

Results

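Gad1, Gphn and Gabbr1 are 3 genes of the GABA synapse, taken by gene symbol from the splicing tables of mouse cortical neurons, whose rows named 9056 genes in all. Gad1 codes for a glutamate decarboxylase that makes GABA, Gphn for gephyrin, the scaffold under inhibitory receptors, and Gabbr1 for the ligand-binding subunit of the GABA-B receptor. All 3 had splicing events. The tables held 26 rows of them, 3 for Gad1, 5 for Gphn and 18 for Gabbr1, and chromatin tracks gave H3K9me3 over their gene bodies.

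RNA came from wild-type primary cortical neurons of ICR embryos at day 16, kept in culture to day 11. The KCl cultures (2 libraries) were exposed for 10 min to medium mixed with a depolarization buffer that brought KCl to 50 mM, and the control cultures (2 libraries) to the same mixture with NaCl in place of KCl. Both were harvested 24 h later, and the question was which splicing events differ a day after the stimulus. Chromatin came from the hippocampus of wild-type C57BL/6 mice, 3 months old. The enriched mice (2 libraries) spent 24 h in a large cage with toys and then 1 week in the home cage, and the home-cage mice (1 library) had no such housing. The question there was whether the mark differs a week after enrichment. H3K9me3, a histone mark of silenced chromatin, was measured by ChIP-seq (chromatin immunoprecipitation and sequencing). Event reads came to 3643165 and 4666850 in KCl replicates 1 and 2, against 3566066 and 5385345 in control replicates 1 and 2. The ChIP libraries gave 13006322 and 8055983 fragments in the enriched mice and 6185524 in the home-cage mice. Whether replicates come from separate cultures or animals is not in the labels, so each p-value covers no more than the spread between these libraries. Intervals on single libraries are at 95%, exact, and cover counting error only.

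GABA is the main inhibitory transmitter of the cortex. It is made from glutamate in inhibitory neurons, acts on GABA-A receptors, which are chloride channels held at the synapse by gephyrin, and on GABA-B receptors, which signal through G proteins. Gephyrin also carries out the last steps of molybdenum cofactor synthesis, in cells of many kinds. A gephyrin cassette known from the literature is included in non-neuronal tissues and mostly skipped in neurons. Embryonic rodent Gad1 transcripts are known to carry an extra exon that truncates the enzyme. GABA-B receptor isoforms differ at their N terminus through the use of alternative promoters. The files do not name the exons, so none of those measured here was matched to these forms.

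The sequences just upstream of the start sites are shown because the level of H3K9me3 at the start differed between Gad1 and the other genes. They are 250 bases each on the plus strand, from RefSeq on GRCm38.p6, which is the build mm10, with CG pairs in capitals. The windows are chr2:70561879-70562128 for Gad1, chr12:78226405-78226654 for Gphn and chr17:37045716-37045965 for Gabbr1.
Gad1: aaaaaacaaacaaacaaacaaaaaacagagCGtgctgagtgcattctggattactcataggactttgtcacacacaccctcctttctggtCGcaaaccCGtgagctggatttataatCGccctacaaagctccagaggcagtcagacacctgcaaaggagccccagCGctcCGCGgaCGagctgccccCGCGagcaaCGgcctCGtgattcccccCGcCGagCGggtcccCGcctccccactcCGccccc
Gphn: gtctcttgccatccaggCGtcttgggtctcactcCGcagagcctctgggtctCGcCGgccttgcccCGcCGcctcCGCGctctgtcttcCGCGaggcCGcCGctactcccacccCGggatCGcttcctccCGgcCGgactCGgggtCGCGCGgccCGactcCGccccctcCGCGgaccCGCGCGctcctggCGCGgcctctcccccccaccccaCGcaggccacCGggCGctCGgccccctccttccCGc
Gabbr1: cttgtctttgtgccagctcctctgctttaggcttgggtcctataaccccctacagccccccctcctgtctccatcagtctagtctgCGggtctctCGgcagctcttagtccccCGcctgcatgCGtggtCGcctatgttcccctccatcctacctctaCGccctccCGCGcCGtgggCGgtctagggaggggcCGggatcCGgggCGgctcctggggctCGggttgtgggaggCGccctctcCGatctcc
They hold 17, 34 and 16 CG pairs in Gad1, Gphn and Gabbr1. Counted over 300 bases, with 50 bases past the start, the pairs came to 21, 42 and 18, against a median of 7 over 32851 promoters of that length. GC content was 60.0% for Gad1, 77.0% for Gphn and 67.3% for Gabbr1, against a median of 52.7%. Motifs bound by factors that neuronal activity is known to engage were searched in the 300 bases on both strands. They were TGACGTCA (in 1.79% of all promoters), the shorter TGACG, which lies within it (20.8%), and the E-box CACGTG (7.15%), and none of the 3 promoters held these letters.

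Of 17 sets of event coordinates in the 3 genes, 15 were cassette exons, which are included or skipped whole, and 2 were pairs of mutually exclusive exons. No retained intron or alternative splice site was listed for them. The size of the cassette exon was a multiple of 3 bases, which keeps the reading frame where the exon is coding, in 9 of the 15. Events in both replicate tables could be compared between the groups: 1 of Gad1, 1 of Gphn and 5 of Gabbr1. The other 2 events of the replicate 1 table and 8 of the replicate 2 table had 1 library per group.

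The 108-base cassette exon of Gphn (chr12:78493950-78494057, mm10) had a higher inclusion share in both KCl libraries. The inclusion share, which is the percentage of event reads that hold the exon, is not corrected for the length over which each form can be read. The exon had 56 inclusion and 25 skipping reads in KCl replicate 1, a share of 69.14% (57.89 to 78.93), and 104 and 117 reads in KCl replicate 2, a share of 47.06% (40.33 to 53.87). Control replicate 1 had 32 and 78 reads, a share of 29.09% (20.82 to 38.52), and control replicate 2 had 58 and 266 reads, a share of 17.9% (13.88 to 22.52). Both KCl libraries lay above both control libraries, with counting intervals that did not overlap, and the replicate 1 library was the higher of its pair in both groups. The mean was 58.1% ± 15.61 in KCl and 23.49% ± 7.91 in control (SD, n = 2 each). The log2 odds ratio was 2.20 (SE 0.68, 95% interval 0.78 to 3.62), and edgeR's quasi-likelihood test gave an unadjusted p of 0.00429 that became 0.246 after adjustment, above the threshold of 0.05.

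In the authors' deposited table, which compares KCl with control inside a replicate number, the Gphn exon had an FDR of 0.000149553 in replicate 1 and of 3.32e-06 in replicate 2. It was the 1 event of the 7 with an FDR under 0.05 in both replicates of the authors' deposited table, against 1.03% of 11814 events. Counted per replicate, 1 of the 9 rows of Gad1, Gphn and Gabbr1 passed in replicate 1 of the authors' deposited table, against 2.26% of its rows, and 1 of the 17 rows in replicate 2, against 0.828%. Those tests compare a library with a library, not the conditions. Reads of the event as a whole numbered 81 and 221 in KCl, against 110 and 324 in control.

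The other Gphn exons were near full inclusion. The 273-base exon (chr12:78492038-78492310), listed in replicate 2, had 383 inclusion and 3 skipping reads in KCl, a share of 99.22% (97.75 to 99.84), against 643 and 1 reads in control, a share of 99.84% (99.14 to 100.0). In replicate 1 the 154-base exon (chr12:78627107-78627260) had 132 inclusion and 0 skipping reads in KCl, against 211 and 1 in control. The 65-base exon (chr12:78669824-78669888) had 18 and 2 reads in KCl, a share of 90.0% (68.3 to 98.77), against 15 and 0 in control, a share of 100.0% (78.2 to 100.0). With so few reads a difference in the 65-base exon was not detectable. The 108-base exon was the 1 Gphn exon of the 4 in which both forms were common.

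The 80-base cassette exon of Gad1 (chr2:70584420-70584499) was a minor form in all 4 libraries and had a higher share in KCl. KCl replicate 1 had 5 inclusion and 34 skipping reads, a share of 12.82% (4.3 to 27.43), and KCl replicate 2 had 22 and 34 reads, a share of 39.29% (26.5 to 53.25). Control replicate 1 had 4 and 109 reads, a share of 3.54% (0.97 to 8.82), and control replicate 2 had 9 and 64 reads, a share of 12.33% (5.8 to 22.12). The groups stood apart only narrowly, since KCl replicate 1 and control replicate 2 were nearly equal, and here the replicate 2 library was the higher of its pair in both groups. The mean was 26.06% ± 18.72 in KCl and 7.94% ± 6.22 in control (SD, n = 2 each). The log2 odds ratio was 2.18 (SE 0.96, 0.17 to 4.18), and edgeR's quasi-likelihood test gave an unadjusted p of 0.0347, or 0.491 adjusted. The log2 odds ratio was 0.93 without KCl replicate 2 and 1.32 without control replicate 1. In the authors' deposited table its FDR was 1 in replicate 1 and 0.344 in replicate 2. Its size is not a multiple of 3 bases. The 63-base exon of Gad1 (chr2:70567186-70567248), listed in replicate 2, had 189 inclusion and 0 skipping reads in KCl, against 274 and 2 in control.

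Gabbr1 had the most events. In its cassette exons listed in both replicate tables the mean share was lower in KCl, though the groups of the 135-base exon overlapped. The mutually exclusive pair in both tables had a higher mean share in KCl, and its groups overlapped too. The 151-base cassette exon (chr17:37067214-37067364) was almost always included, and skipping reads were more frequent in KCl. KCl replicate 1 had 278 inclusion and 14 skipping reads, a share of 95.21% (92.09 to 97.35), and KCl replicate 2 had 772 and 15 reads, a share of 98.09% (96.88 to 98.93). Control replicate 1 had 1403 and 2 reads, a share of 99.86% (99.49 to 99.98), and control replicate 2 had 1708 and 5 reads, a share of 99.71% (99.32 to 99.91). Both KCl libraries lay below both control libraries, with 14 and 15 skipping reads against 2 and 5, although control libraries had more reads of the event. The mean was 96.65% ± 2.04 in KCl and 99.78% ± 0.11 in control (SD, n = 2 each), a log2 odds ratio of -3.77 (SE 0.87, -5.59 to -1.95). The unadjusted p was 0.000348 and the adjusted p 0.115 in edgeR's quasi-likelihood test. In the authors' deposited table its FDR was 0.131 in replicate 1 and 1 in replicate 2.

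Near the start of Gabbr1, a 145-base exon (chr17:37049653-37049797) and a 21-base exon that ends at the same base (chr17:37049777-37049797) were listed as separate events with identical skipping reads. Those reads numbered 12 and 10 in KCl, against 10 and 9 in control. The 21-base form had 16 and 20 inclusion reads in KCl, shares of 57.14% (37.18 to 75.54) and 66.67% (47.19 to 82.71). In control it had 75 and 65 inclusion reads, shares of 88.24% (79.43 to 94.21) and 87.84% (78.16 to 94.29). Both KCl libraries were lower than both control libraries, with fewer inclusion reads in KCl and about as many skipping reads in both groups. The log2 odds ratio was -2.16 (SE 0.84, -3.91 to -0.41; unadjusted p 0.0179, adjusted p 0.42, edgeR's quasi-likelihood test). The 145-base form had shares of 68.42% and 68.75% in KCl, against 80.77% and 83.93% in control, with a log2 odds ratio of -1.09 (SE 0.83, -2.82 to 0.63; edgeR adjusted p 0.799). The groups stood apart there too, but the interval included 0.

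The mutually exclusive pair of Gabbr1 that joins a 186-base exon (chr17:37048421-37048606) with the same 145-base exon had shares of 97.26% and 92.64% in KCl, against 94.99% and 85.62% in control, and the groups overlapped. Its log2 odds ratio was 0.96 (SE 0.78, -0.66 to 2.59; edgeR adjusted p 0.819). The files do not state which exon of such a pair the inclusion reads stand for. The 135-base exon (chr17:37054131-37054265) was included in 99.75% and 99.47% of reads in KCl and in 99.79% and 99.7% in control, with 1 and 3 skipping reads in KCl and 3 and 4 in control. Among the events listed only in replicate 2, the cassette exons of 66, 102, 133, 171 and 192 bases (the 102- and 171-base exons listed 2 times each) had 0 or 1 skipping reads each in KCl and 0 to 3 in control. The remaining event, a mutually exclusive pair of the 171- and 102-base exons, had a share of 32.63% (23.36 to 43.02) in KCl and 23.5% (18.03 to 29.72) in control, with 95 and 217 reads.

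**Figure D1:**
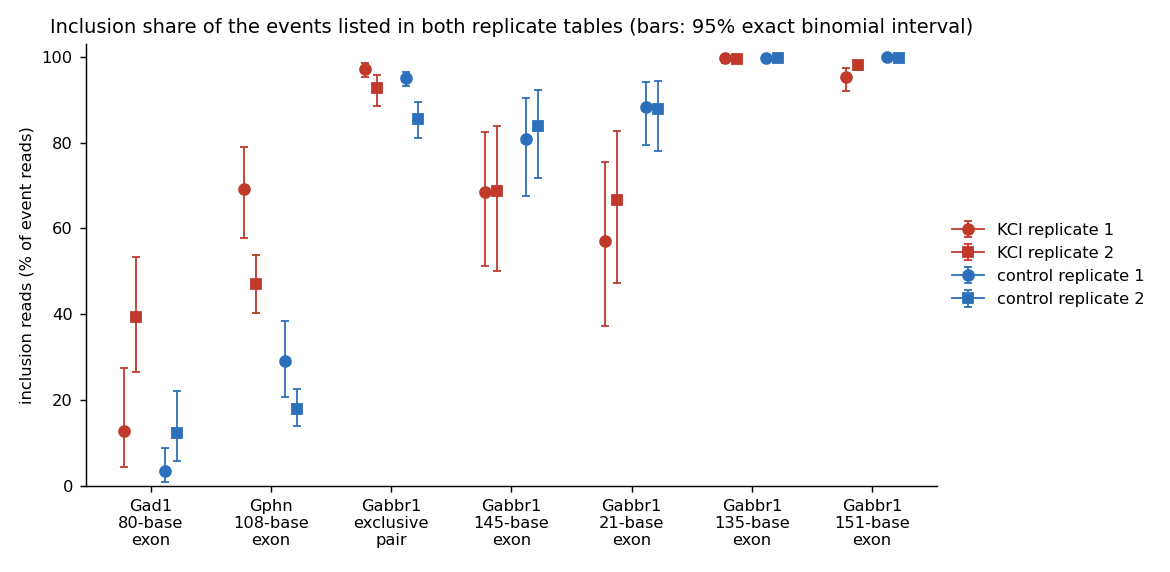
Inclusion reads in percent of event reads (vertical axis) for the 7 events of Gad1, Gphn and Gabbr1 in both replicate tables, with KCl left of control and bars of 95% exact binomial intervals. The Gphn exon stands at 69.14% and 47.06% in KCl and at 29.09% and 17.9% in control, while the 151-base exon of Gabbr1 stays above 95% in all libraries.

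Set side by side, 5 of the 7 events had groups that did not overlap, against 40.7% of the 10088 events tested. At an unadjusted p under 0.05 there were 4 of the 7 (2 with higher shares in KCl, the exons of Gad1 and Gphn, and 2 with lower shares, both in Gabbr1), against 9.21% of all events. The events of Gabbr1 share reads with one another and are not independent. After Benjamini-Hochberg adjustment edgeR called 0 of the 7 and 0 of all 10088 (0.0%), with 929 at an unadjusted p under 0.05, and DESeq2 and limma also called 0.

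The level of a gene was read from its best-covered event, in CPM (counts scaled to the same library total of such reads), since the files hold no value per gene. Gabbr1 stood at 199.9 and 445.5 CPM in KCl replicates 1 and 2, against 978.8 and 919.2 CPM in control replicates 1 and 2. Both KCl libraries were below both control libraries, and KCl replicate 1 was the lowest. The mean was 322.7 ± 173.7 CPM in KCl and 949.0 ± 42.1 CPM in control (SD, n = 2 each), a log2 fold change of -1.56 (SE 0.49, -2.70 to -0.41). The unadjusted p was 0.015 and the adjusted p 0.352 in edgeR's quasi-likelihood test; without KCl replicate 2 the log2 fold change was -2.32 and edgeR's adjusted p 0.0285. All 5 Gabbr1 events had a lower level in KCl, with log2 fold changes of -0.60 to -1.55, although the mutually exclusive event stood at 0.51 without control replicate 1, and 3 of the 5 had an unadjusted p under 0.05 (10.9% of all 11814 events). In bulk RNA, fewer cells of a type and less RNA per cell cannot be told apart.

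Gad1 stood at 26.7 and 31.7 CPM in KCl, against 78.72 and 39.17 CPM in control, from 39 and 56 reads in KCl and 113 and 73 reads in control. The groups did not overlap, and the control libraries were the further apart. Its log2 fold change was -1.01 (SE 0.51, -2.21 to 0.20; edgeR adjusted p 0.472), and it was -0.42 without control replicate 1. Gphn stood at 55.46 and 125.1 CPM in KCl, against 76.63 and 173.9 CPM in control, so the groups overlapped and the replicate 2 library was higher in each. Its log2 fold change was -0.47 (SE 0.59, -1.86 to 0.91; edgeR adjusted p 0.842), and it was 0.02 without KCl replicate 1 and 0.24 without control replicate 2. Groups did not overlap in 2 of the 3 genes, against 43.2% of 6114 genes, and 1 of the 3 had an unadjusted p under 0.05, against 12.2%. edgeR called 0 of the 6114 genes (0.0%), with 746 at an unadjusted p under 0.05, and DESeq2 called 55. Leaving out KCl replicate 2 gave 298 calls in edgeR, leaving out control replicate 2 gave 20 and leaving out KCl replicate 1 gave 3.

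**Figure D2:**
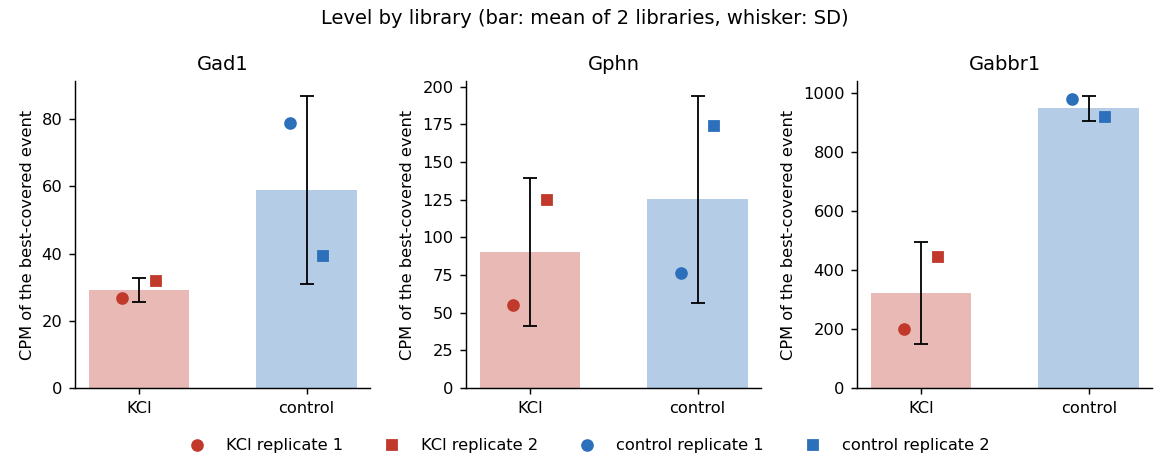
CPM of the best-covered event (vertical axis, from 0) of Gad1, Gphn and Gabbr1 in each library, KCl left of control, with bars for the mean and whiskers for the SD of 2 libraries. Gabbr1 lies at 199.9 and 445.5 CPM in KCl and above 900 CPM in both control libraries, while the Gphn groups overlap.

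Markers of cell types moved with the groups. Of 9 neuron markers 6 had a level (Rbfox3, Map2, Snap25, Syt1, Stmn2 and Dcx). Their CPM summed to 549.8 and 2327 in KCl, against 6850 and 6915 in control. Most of that was Stmn2, at 338.9 and 1461 CPM in KCl, against 5288 and 4547 CPM in control. The groups overlapped in Dcx, at 44.51 and 181.2 CPM in KCl, against 66.18 and 294.6 CPM in control. All 6 neuron markers were lower in KCl, against 47.5% of all 6114 genes, with a median log2 fold change of -2.03. Of the 6, 3 were lower at an unadjusted p under 0.05 (edgeR), against 7.26% of all genes. Of 21 inhibitory neuron markers, 6 had a level (among them Gad1, Lhx6, Reln and Erbb4), with sums of 397.1 and 409.9 CPM in KCl, against 631.1 and 464.2 CPM in control. Gad2 and Slc32a1, which with Gad1 define these neurons, had no level here. The 2 measured of 11 excitatory neuron markers, Cux1 and Cux2, summed to 221.2 and 301.2 CPM in KCl and to 204.8 and 271.0 CPM in control.

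Marker lists of other cells had higher sums in KCl, and some of these sums rested largely on 1 gene. Oligodendrocyte lineage markers (5 measured of 11) summed to 1997 and 1094 CPM in KCl, against 317 and 341.3 CPM in control. Astrocyte markers (5 of 10) summed to 4135 and 3061 CPM in KCl, against 2978 and 2309 CPM in control. Most of that was Aldoc, at 2695 and 2058 CPM in KCl, against 2272 and 1611 CPM in control, with groups that overlapped. The astrocyte marker Slc1a2 had a log2 fold change of 0.04. Progenitor markers (4 of 8) summed to 612.1 and 688.4 CPM in KCl, against 198.5 and 391.2 CPM in control. Of 11 microglia and vascular markers Pdgfrb, Col1a2 and Tagln had a level, with sums of 2902 and 2240 CPM in KCl, against 431.2 and 517.3 CPM in control, and no microglia marker was measured. Tagln alone stood at 2750 and 2128 CPM in KCl, against 404.7 and 472.2 CPM in control. At an unadjusted p under 0.05 (edgeR) and higher there were 4 of the 5 oligodendrocyte and 2 of the 5 astrocyte markers. There were also 1 of the 4 progenitor and 2 of the 3 vascular markers, against 302 of all 6114 genes. Of these markers edgeR called 0. KCl replicate 1, with the lowest neuron sum, had the higher Gphn exon share and the lower Gad1 exon share of the KCl pair. The part of these markers in the shares and levels of Gad1, Gphn and Gabbr1 was not tested.

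The GABA pathway was followed through 8 lists of 70 genes, of which 43 had an event row and 31 a level. Of the 31, 11 were higher and 20 lower in KCl, while 47.5% of all genes were lower. The median log2 fold change was -0.43, against 0.04 over all genes. At an unadjusted p under 0.05 there were 0 higher and 7 lower, against 7.26% of all genes lower, and edgeR called 0. Without Gad1, Gphn and Gabbr1, 11 of 28 were higher and 17 lower, with a median of -0.38 and 6 lower at an unadjusted p under 0.05.

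GABA-A receptor subunits, which form the chloride channel, had a level in 5 of 19 genes. All 5 were lower in KCl, against 47.5% of all genes, with a median log2 fold change of -2.11. Gabra5 stood at 9.586 and 48.69 CPM in KCl, against 158.1 and 143.3 CPM in control (log2 fold change -2.36). Gabra2 stood at 4.108 and 54.35 CPM in KCl, against 84.99 and 180.8 CPM in control (-2.17). At an unadjusted p under 0.05 and lower there were 4 of the 5, with Gabra5 among them and Gabra2 not, against 7.26% of all genes, and no adjusted p of the 5 was under 0.352 in edgeR's quasi-likelihood test, while 4 of the 5 passed without KCl replicate 2. In each subunit, as in Gabbr1, both KCl libraries lay below both control libraries, while groups did not overlap, in either direction, in 43.2% of all genes.

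Scaffold and adhesion genes of the inhibitory synapse, the list that holds Gphn, had 4 higher and 7 lower of the 11 measured of 15, with a median log2 fold change of -0.41. Iqsec3, an exchange factor that binds gephyrin, stood at 22.6 and 35.1 CPM in KCl, against 64.79 and 81.03 CPM in control (-1.33). Shisa7, an auxiliary protein of GABA-A receptors, stood at 11.64 and 23.21 CPM in KCl, against 57.82 and 39.17 CPM in control (-1.46). Both had an unadjusted p under 0.05 and did not pass after adjustment in edgeR. The adhesion molecule Nlgn2 had a log2 fold change of -0.35, and dystroglycan, coded by Dag1, of 0.93.

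The other lists held values of both signs. Abat, which breaks GABA down, had a log2 fold change of 0.62. The chloride importer Slc12a2 had 0.60 and the exporter Slc12a5 had -0.91. Trafficking genes had a median of -0.11 (7 measured of 13), with 0.24 for Gabarap, -0.31 for Ubqln1 and 0.45 for Clptm1. In molybdenum cofactor synthesis, the other pathway of gephyrin, Mocs1 had 0.63 and Mocs2 0.33. None of these had an unadjusted p under 0.05 (edgeR).

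**Figure D3:**
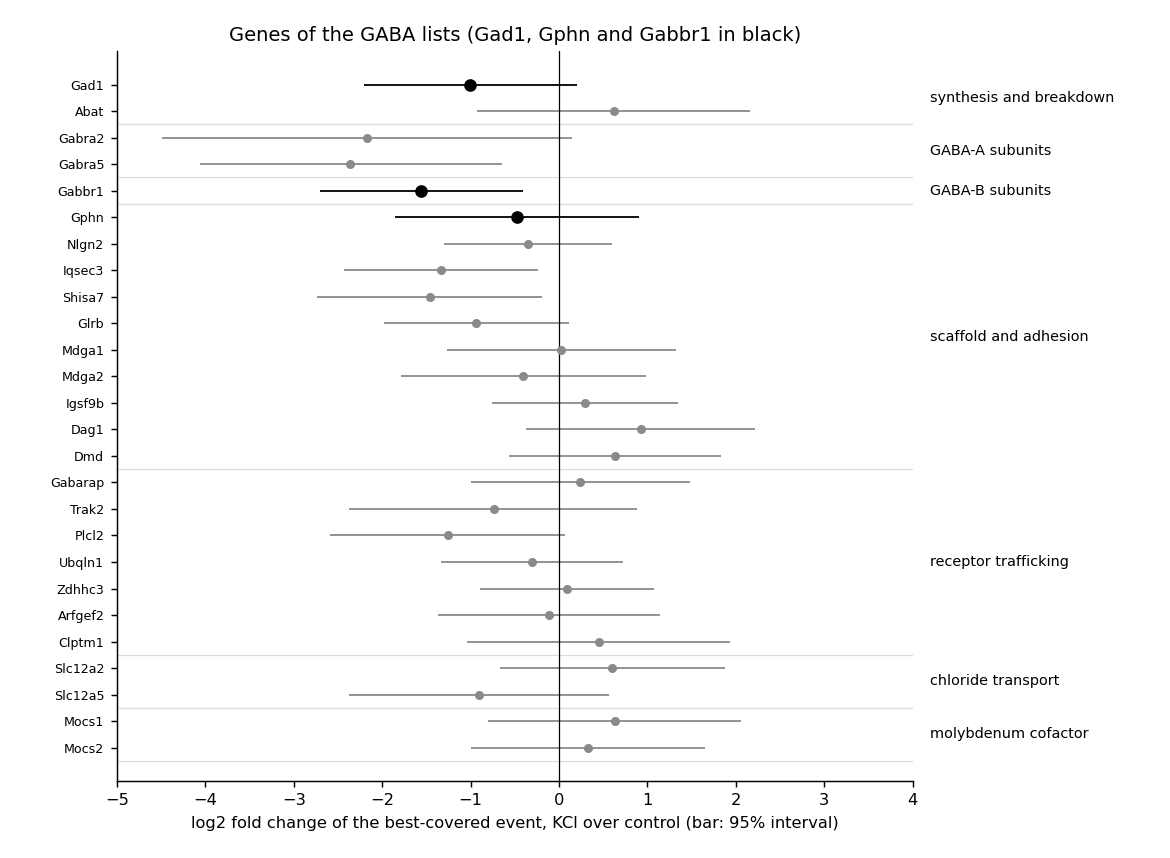
Log2 fold change of the best-covered event, KCl over control (horizontal axis), with 95% intervals for genes of the GABA lists that had a level. Gabra2, Gabra5 and Gabbr1 lie below -1.5, while Gphn and Gad1 have intervals that include 0.

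Splicing in the lists was tested for 46 events in 29 genes. At an unadjusted p under 0.05 there were 6 with a higher share in KCl, against 4.24% of all events, and 2 with a lower share, against 4.97%. Without Gad1, Gphn and Gabbr1 there were 4 higher and 0 lower of 39. These 4 were cassette exons of Slc12a2, Dmd, Shisa7 and Arfgef2. The 48-base exon of Slc12a2 had shares of 94.12% and 84.0% in KCl, against 50.0% and 23.81% in control (log2 odds ratio 3.91, SE 0.98; edgeR adjusted p 0.144). The 51-base exon of Shisa7 had 23.53% and 63.41% in KCl, against 12.05% and 15.07% in control (2.50, SE 0.92; edgeR adjusted p 0.38). The 69-base exon of Arfgef2, an exchange factor in receptor trafficking, had 93.1% and 84.44% in KCl, against 66.67% and 56.67% in control (2.25, SE 0.91; edgeR adjusted p 0.451). The 39-base exon of Dmd, the dystrophin gene, had 88.89% and 70.0% in KCl, against 25.0% and 14.29% in control (4.04, SE 1.43; edgeR adjusted p 0.352), from only 9 and 10 reads in KCl and 4 and 14 in control. All 4 exons are a multiple of 3 bases long. They are named for an unadjusted p under 0.05 (9.21% of all events) and groups that did not overlap (40.7%), so neither is a result about them.

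Likeness of level was measured as the Euclidean distance between log2(CPM + 0.5) values centred over the 4 RNA libraries, among 5300 genes with at least 20 reads on average. The genes nearest to Gabbr1 were Fbxw7 (distance 0.137), Map3k5 (0.206) and Kif17 (0.207). Those nearest to Gphn were Ncoa2 (0.123), Tsr1 (0.128) and Zfr (0.135), and those nearest to Gad1 were Lcmt1 (0.202), Rundc3a (0.209) and Tasp1 (0.215). Those nearest genes are picked from all 5300, so most pairs lie further apart. Counted from Gad1, Gphn had rank 3527 (distance 1.731) and Gabbr1 rank 1484 (1.175). Counted from Gphn, Gabbr1 had rank 2622 (1.496).

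In the adult hippocampus, H3K9me3 over the Gad1 gene body (chr2:70561303-70602014) was 1.64 times the library's median 10 kb window in enriched replicate 1 (95% Poisson interval 1.46 to 1.83) and 1.28 times in enriched replicate 2 (1.09 to 1.49), against 1.42 times in the home cage (1.18 to 1.69). These rest on 314 and 161 fragments in the enriched libraries and 127 in the home-cage library. The home-cage value lay between the enriched values, and Gad1 ranked at percentile 85.0 of 24372 gene bodies by its mean level. The log2 ratio of enriched over home cage was 0.08 (SE 0.23, -0.37 to 0.52).

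Over Gphn (chr12:78217325-78684772) the level was 0.92 and 0.98 times the median in the enriched libraries and 0.94 times in the home cage, from 2032, 1416 and 964 fragments. The log2 ratio was 0.04 (-0.21 to 0.30), the narrowest of the 3 intervals. Over Gabbr1 (chr17:37045966-37074305) the level was 0.80 and 1.13 times in the enriched libraries and 0.91 times in the home cage, from 107, 99 and 57 fragments, with a log2 ratio of 0.05 (-0.52 to 0.62). By mean level both genes ranked near percentile 41 (41.0 for Gphn, 41.2 for Gabbr1), close to the middle of all gene bodies. By library, Gphn ranked at 40.8 and 42.8 in the enriched libraries and 41.9 in the home cage. Gabbr1 varied more, at 24.5 and 63.9 in the enriched libraries and 39.0 in the home cage. In all 3 genes the home-cage value lay between the enriched values, and the limma adjusted p was 1.0. limma with voom weights called 0 of 24372 gene bodies (0.0%), with 415 at an unadjusted p under 0.05 (1.7%), and without those weights it called 1. The fit takes the spread of the lone home-cage library to be that of the enriched pair.

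Within Gad1 the mark was uneven. The 2 kb around the start site held 36 and 19 fragments in the enriched libraries and 18 in the home-cage library. That is 3.83 (2.68 to 5.3) and 3.06 (1.84 to 4.78) times the median in the enriched libraries and 4.09 times (2.42 to 6.46) in the home cage, at percentile 98.4 of 32851 start sites. All 3 intervals lay above 1. The first 10 kb window of the gene stood at 3.17 and 2.45 times in the enriched libraries and 2.64 times in the home cage, at percentile 99.1 of all windows, and it was the 1 window of 4 inside the gene that was above 2 in all 3 libraries. A window that begins 20 kb upstream of it was also above 2 in all 3 libraries. It stood at 2.40 and 2.35 times in the enriched libraries and 3.64 times in the home cage, so the signal was not confined to the start of Gad1. No input library was among the samples, and how far coverage varies here without the antibody was not tested. The window between them had 1.26 and 1.35 times in the enriched libraries and 1.36 times in the home cage. The next window, 10 kb further in, had 1.30 and 1.16 times in the enriched libraries and 1.09 times in the home cage. The noncoding RNA gene Gad1os (chr2:70489940-70563357) overlaps the start of Gad1, and the tracks carry no strand.

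The start sites of the other genes did not share this level. Gphn had 3 and 5 fragments in the enriched libraries and 3 in the home cage (0.32, 0.81 and 0.68 times; percentile 21.3), and Gabbr1 had 10 and 9 fragments in the enriched libraries and 3 in the home cage (1.06, 1.45 and 0.68 times; percentile 61.1). The intervals of Gabbr1 all included 1. Gphn had 1 window of 46 above 2 in all libraries, 60 kb from the start of the gene model, at 2.38 and 2.13 times in the enriched libraries and 2.18 times in the home cage, while the median over its windows was 0.84. Around the Gphn exon of 108 bases, 2 kb held 4 and 6 fragments in the enriched libraries and 2 in the home cage, and around the Gad1 exon of 80 bases 9 and 3 in the enriched libraries and 4 in the home cage. At those counts no difference between housing groups was detectable at the exons.

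**Figure D4:**
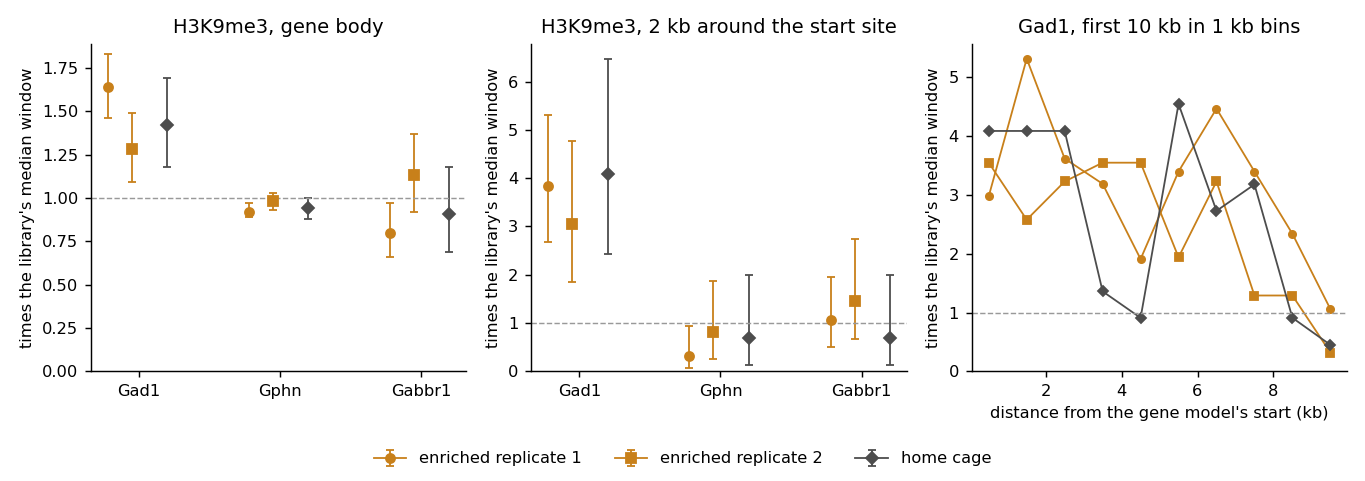
H3K9me3 in times the library's median window (vertical axes) over the gene bodies, in 2 kb around the start sites and, for Gad1, in 1 kb bins over the first 10 kb (horizontal axis, distance in kb), with enriched left of home cage and 95% Poisson bars in the first panels. At the start site Gad1 lies at 3.83 and 3.06 times in the enriched libraries and 4.09 times in the home cage, above Gphn and Gabbr1 in all 3 libraries.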

How the data were processed

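Sample titles and protocols gave the groups. Per the file headers, the authors deposited whole-number counts of inclusion and skipping reads per splicing event, with their own p-values and FDRs for KCl against control of the same number. They also deposited ChIP coverage as a signal track per library. The submitters' processing notes name CASAVA 1.7, BWA 0.7.12, MACS2, TopHat2 and mm10; which tool made which file is not given in the sources used here. The control replicate 1 table also held 2 unused columns of a KCl library.

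Start positions were made 1-based. Events whose coordinates occur once in each replicate table (11814) entered the fits. Splicing was tested in 10088 of them, whose inclusion and skipping reads each averaged 1 or more, by edgeR 4.0.16 (R 4.3.3), quasi-likelihood; the model had terms for library, form, and form by KCl. Levels used edgeR on event reads (TMM scaling). P-values were adjusted by Benjamini-Hochberg over all features, with a threshold of 0.05. DESeq2 1.42.0 and limma 3.58.1 were alternatives. Near-identical copies, such as a Gad1 pseudogene, can share reads.

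ChIP values came in whole steps (tolerance 0.01), from which fragments were recovered, with lengths of 207 and 238 bases in the enriched libraries and 285 in the home cage. No more than 2 per start position were retained. Midpoints were counted in GRCm38.p6 gene models averaging 20 fragments or more, divided by the median of 10 kb windows (47 and 31 fragments in the enriched libraries, 22 in the home cage), and tested by limma with voom weights on libraries scaled over the lower 75% of windows. The design had foreseen other units for some files; the tests these need were used. The fits were tested on simulated data.

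The genes, lists and tests were chosen with earlier results of these data known. Besides Gad1, Gphn and Gabbr1, the genes named are those of the lists with an unadjusted p under 0.05 and groups apart, the 3 best-covered of each list, and the 3 nearest in level to each gene. A few genes this rule would name are not reported here. Alternatives were other filters, scalings and tools, a replicate block, and leaving out each library. The count of lower GABA-A subunits was recomputed under them after the data were seen. Scripts ran in Python 3.11.15 with scipy 1.17.1, pandas 2.3.3, numpy 2.4.6 and, for plots, matplotlib 3.10.9.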

Additional observations from a re-analysis of the deposited data

How the results depend on the processing

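Counts that were 0 gained calls under some settings, and the cause was not tested. With the replicate number as a replicate block, edgeR called 168 splicing events, 1359 event levels and 1240 gene levels. Over the alternatives that kept every library, edgeR's and the other tools' adjusted p ran from 0.012 to 0.536 for the Gphn exon, 0.000896 to 0.354 for the 151-base Gabbr1 exon and 0.00317 to 0.354 for the Gabbr1 level. In the block fit the Gphn exon had a log2 odds ratio of 2.20 (adjusted p 0.012), the 151-base Gabbr1 exon -3.74 (0.000896) and the Gabbr1 level a log2 fold change of -1.66 (0.00317); the Gabbr1 events of 21, 135 and 151 bases passed in level (edgeR adjusted p 0.0337, 0.0281 and 0.0306). What libraries of the same number share is not in the labels, and their deviations correlated at 0.665 for gene levels and 0.0809 for inclusion log odds. DESeq2 called 74 event levels and 55 gene levels. Leaving out 1 library in turn gave 0 splicing calls each time, 0 to 434 event levels (434 without KCl replicate 2, 80 without control replicate 2, 3 without control replicate 1) and 0 to 298 gene levels (20 when control replicate 2 was left out, 3 for KCl replicate 1 and 298 for KCl replicate 2). Without KCl replicate 2 Gabbr1 passed with a log2 fold change of -2.32 (edgeR adjusted p 0.0285) and its 151-base event level with -2.28 (0.0428). Left-out log2 odds ratios ran from 1.60 to 2.93 for the Gphn exon, 0.93 to 3.23 for the Gad1 exon and -4.47 to -3.10 for the 151-base Gabbr1 exon, always in the same direction. Directions turned round in values that had not passed: the Gphn event level (left-out range -1.19 to 0.21) was 0.01 without KCl replicate 1 and 0.21 without control replicate 2, the Gphn gene level (-1.24 to 0.24) was 0.02 and 0.24, and the level of the mutually exclusive Gabbr1 pair with a 186-base exon (-1.42 to 0.51) was 0.51 without control replicate 1. H3K9me3 log2 ratios ran from -0.12 (without enriched replicate 1) to 0.23 for Gad1 and from -0.17 (without enriched replicate 2) to 0.33 for Gabbr1. limma called 1 gene body without voom weights and 1 with scaling by total fragments. For ChIP, no paired analysis was possible because there is 1 home-cage library. The 5 GABA-A subunits were lower in KCl in all 10 alternatives, with medians of -3.71 to -1.41 and 0 to 5 called. Depth limits the Gad1 exon (39 to 113 event reads) and the ChIP windows around single exons (2 to 10 fragments).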

Other observations

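Across the 8 GABA lists 66 genes had H3K9me3 measured over the gene body, with a median of 0.95 times the library's median window, against 1.01 over all 24372 gene bodies. The highest was Slc32a1, which codes for the transporter that loads GABA into vesicles, with 3.76 (3.18 to 4.41) and 2.96 (2.34 to 3.7) times in the enriched libraries and 4.93 times (3.97 to 6.04) in the home cage, at percentile 98.8. Gad2, the other glutamate decarboxylase gene, stood at 1.68 and 1.36 times in the enriched libraries and 1.82 times in the home cage, at percentile 89.5. Between the housing groups 35 genes had a higher and 31 a lower ratio, 3 had an unadjusted p under 0.05 in limma (Slc32a1, Gabre and Insyn1), against 1.7% of all gene bodies, and limma called 0. These genes were singled out after their values were seen.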
